A study of Mus musculus with 18 samples.

Results

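The 10 genes described here encode inflammatory and colony-stimulating cytokines: *Il1a*, *Il1b* and *Il33* of the IL-1 family, *Il6*, *Il11* and *Lif* of the IL-6 family, the colony-stimulating factors *Csf1*, *Csf2* and *Csf3*, and *Tslp*. They were chosen by symbol, with earlier results of these data known, and all 10 were found among the 24333 symbols that 2 tables of read counts share. Messenger RNA was sequenced from 168FARN and 67NR cells, mouse mammary tumour lines that do not metastasize. In each line, WT cells, *Kmt2c* KO cells and *Kmt2d* KO cells gave 3 libraries each, 18 in all. The KO cells were sorted pools of cells that had received Cas9 and several guides against exon 1, not single clones. The authors sequenced the targeted sites and found unedited reads in all pools but *Kmt2d* KO of 168FARN. The share of unedited reads was largest in *Kmt2c* KO of 67NR. Their immunoblots showed less of the proteins in KO cells. WT cells of 168FARN carried a control guide, whereas those of 67NR were named WT without a guide. The replicates are called biological, which the authors define as collections of a cell line separated by a passage. Whether a KO was made more than once is not stated, so p-values measure the spread between libraries and not between KO pools.

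Cytokines are proteins, released from cells, through which cells signal to their neighbours and to immune cells. IL-1 alpha, IL-1 beta and IL-33 bind receptors that share a co-receptor and act through NF-kappaB. IL-6, IL-11 and LIF signal through a shared chain, encoded by *Il6st*, to STAT3. CSF1, CSF2 and CSF3 drive the production and survival of macrophages and granulocytes, and TSLP is an epithelial cytokine that acts on dendritic and other immune cells. KMT2C and KMT2D are methyltransferases of lysine 4 of histone H3, which act mostly at enhancers.

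The gene counts of a library summed to 14359760 to 43427382 in 168FARN and to 40951775 to 79251530 in 67NR. *Rn45s*, the ribosomal RNA precursor, took 0.458% to 4.96% of these in 168FARN and 0.495% to 28.7% in 67NR, with the highest share in *Kmt2d* KO replicate 3. Replicate 3 stood apart from replicates 1 and 2 in all 6 groups, and values are therefore given for each library in the order of replicates 1, 2 and 3. *Kmt2c* and *Kmt2d* mRNA did not fall in their own KO cells: the log2 fold changes were -0.18 ± 0.49 (SE) for *Kmt2c* and 0.71 ± 0.36 for *Kmt2d* in 168FARN, and 0.63 ± 0.14 and 0.22 ± 0.23 in 67NR. Counts over the whole gene cannot check a small edit in exon 1. Levels are in CPM (read counts relative to the size of the library), scaled across all 18 libraries.

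In WT cells, the lines differed in how many of the 10 transcripts they made. The 67NR WT cells held reads of all 10, with a summed level of 1137 ± 64.7 CPM (SD, n = 3). The sum in 168FARN WT cells was 310 ± 43.3 CPM. Without *Csf1*, the macrophage growth factor, it was 25.7 ± 0.825 CPM in 168FARN and 527 ± 82.7 CPM in 67NR WT cells. Per kilobase of exon, the order in 67NR was *Csf1* (116 CPM per kb), *Il1a* (105), *Csf3* (95.4) and *Tslp* (76.8), neighbours whose ranges over libraries overlapped. *Csf2* (18.6) and *Lif* (17.8) overlapped each other and lay below these, followed by *Il11* at 2.47, *Il33* at 0.875 and *Il1b* at 0.445, which overlapped each other, and *Il6* at 0.178 CPM per kb. In 168FARN, *Csf1* led at 54.1 CPM per kb, *Il11* followed at 9.88, and *Il33* (2.19) overlapped *Lif* (1.29). *Tslp*, *Csf2* and *Il6* lay between 0.400 and 0.137 CPM per kb in 168FARN WT cells.

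Several of these transcripts were at or near 0 reads in 168FARN. *Il1b*, which encodes the secreted IL-1 processed by caspase-1, had 0 reads in all 9 libraries, and *Csf3*, which encodes the granulocyte factor G-CSF, had 0 in the 3 WT libraries. A count of 0 over the WT libraries allows up to 3 reads, or 0.0287 CPM, by counting error alone. Against that floor over the group, *Il1b* was at least 29.9-fold and *Csf3* at least 4860-fold higher in 67NR WT cells. For *Il1a*, with 3 reads in 168FARN WT cells, the ratio of pooled levels was 7405, with a 95% counting interval of 2534 to 35910. *Csf2*, which encodes GM-CSF, had 12 reads there and a ratio of 139.7 (79.87 to 270.7), and *Tslp* had 43 reads and a ratio of 218.4 (162.1 to 301.9). WT replicate 1 of 168FARN held 27 of these 43 reads and all 3 of *Il1a*. Without that library the *Tslp* ratio was 422.4 (260 to 739.2), and *Il1a*, with 0 reads left, was at least 5328-fold higher in 67NR WT cells. Counting intervals leave out the spread between replicates.

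Between the WT cells of the lines, 8 of the 10 genes passed the test, where 39.2% of all genes did (edgeR, adjusted p below 0.1 and a log2 fold change beyond 0.6 in size). *Il1a*, *Il1b*, *Lif*, *Csf1*, *Csf2*, *Csf3* and *Tslp* were higher in 67NR, and *Il11*, a cytokine with roles in stromal and bone cells, was lower. *Il1a*, *Il1b*, *Csf2* and *Csf3* were too rare to test in 168FARN alone and passed the filter on low counts only through their reads in 67NR. Their calls were thus largely fixed by the filter, and the count of 8 is no test of the set. *Lif*, which keeps mouse stem cells undifferentiated, had 4.84, 5.55 and 6.48 CPM in 168FARN against 78.5, 70.6 and 82.8 in 67NR (log2 fold change 3.78 ± 0.23, edgeR, adjusted p = 5.83e-09). *Csf1* was 1.10 ± 0.27 higher on the log2 scale (edgeR, adjusted p = 0.00405), and *Il11* 1.99 lower (log2 fold change -1.99 ± 0.37, edgeR, adjusted p = 0.000538). *Il33* (-1.32 ± 0.60, edgeR, adjusted p = 0.101) and *Il6* (0.41, edgeR, adjusted p = 0.725) did not pass. The lines were deposited as separate tables, so line and handling of a table cannot be told apart.

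**Figure D1:**
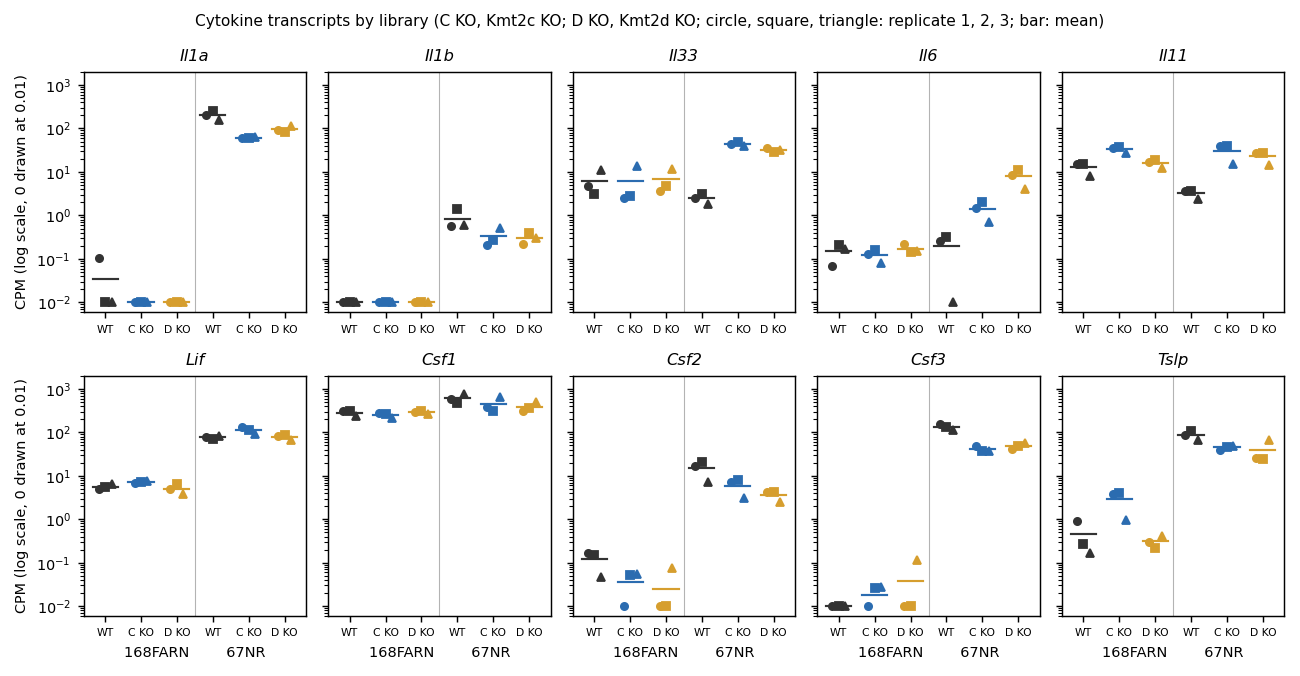
Level of each of the 10 transcripts in each of the 18 libraries, in CPM on a log scale with 0 drawn at 0.01; circles, squares and triangles are replicates 1, 2 and 3, and bars are group means (n = 3). In 67NR, *Il33* and *Il11* lie above WT in every KO library and *Il1a* and *Csf3* below, while *Il1b* is at 0 in all 9 libraries of 168FARN.

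In 67NR, most of these cytokines differed between KO and WT cells, and in both directions. The 67NR KO pools were set against cells named WT without a guide, so gene loss and cell handling cannot be told apart. In *Kmt2c* KO cells, *Il6*, *Il11*, *Lif* and *Il33* rose and *Il1a*, *Csf2*, *Csf3* and *Tslp* fell, 8 of 10 against 35.3% of all genes tested (17.9% higher and 17.4% lower). In *Kmt2d* KO cells, *Il6*, *Il11* and *Il33* rose and *Il1a*, *Csf2*, *Csf3* and *Tslp* fell, 7 of 10 against 25.5% (13.9% higher and 11.6% lower). Both comparisons use the same 3 WT libraries. *Il6* passed the filter on low counts only with its reads in KO cells. Its part in both counts was thus partly fixed by the filter, and the counts are no test of the set. The 10 genes had a median log2 fold change of -0.62 without *Kmt2c* and of -0.81 without *Kmt2d*, beside -0.02 over all genes in both comparisons. Their summed level came to 792 ± 142 CPM with *Kmt2c* lost and 718 ± 113 CPM with *Kmt2d* lost (SD, n = 3).

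**Figure D2:**
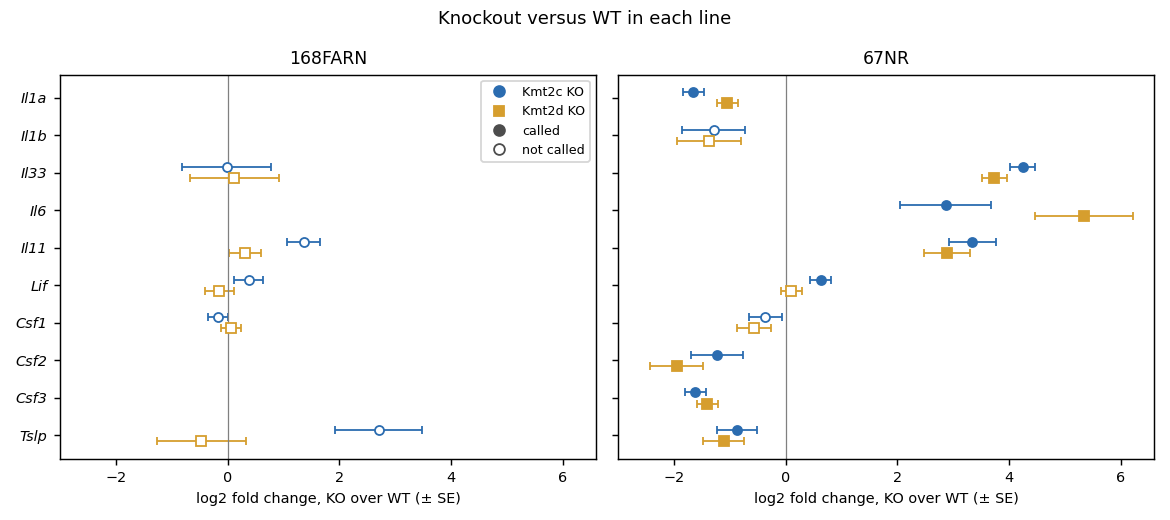
Log2 fold change ± SE of KO over WT cells for each transcript that could be tested, in 168FARN (5 genes, left) and 67NR (10 genes, right); circles are *Kmt2c* KO, squares *Kmt2d* KO, and filled symbols passed the test. In 67NR, *Il33*, *Il6* and *Il11* lie furthest to the right, whereas in 168FARN no symbol is filled.

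Of the IL-1 family, the alarmin *Il33* rose and *Il1a* fell. *Il33*, a nuclear protein of barrier cells released on damage, lies at chr19:29999604-30035194 on the plus strand (mm9). It had 2.52, 3.15 and 1.88 CPM in 67NR WT cells, 44.7, 50.1 and 40.6 CPM in *Kmt2c* KO cells and 35.4, 28.8 and 31.2 CPM in *Kmt2d* KO cells. The KO and WT libraries did not overlap, and the replicates of each KO lay close together. The log2 fold changes were 4.24 ± 0.23 in *Kmt2c* KO (18.9-fold, edgeR, adjusted p = 3.62e-06) and 3.73 ± 0.22 in *Kmt2d* KO cells (13.3-fold, edgeR, adjusted p = 1.02e-05). In every fit that left out 1 library, *Il33* passed in both KOs.

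The receptor of IL-33 moved with its ligand in 67NR. *Il1rl1*, which encodes the IL-33-binding chain ST2, had 4.56, 5.90 and 1.97 CPM in WT cells, 543, 603 and 376 CPM in *Kmt2c* KO cells and 588, 550 and 334 CPM in *Kmt2d* KO cells. It rose by 7.01 ± 0.49 on the log2 scale in *Kmt2c* KO (edgeR, adjusted p = 1.19e-05) and by 6.96 ± 0.49 in *Kmt2d* KO cells (edgeR, adjusted p = 2.18e-05). Its lowest KO library thus lay far above its highest WT library. *Il1rap*, the co-receptor that ST2 shares with the IL-1 receptor, had 36.9, 33.5 and 24.8 CPM in WT cells and between 69.0 and 89.5 CPM in the 6 KO libraries. It rose by 1.47 ± 0.17 (edgeR, adjusted p = 0.000187) and 1.28 ± 0.17 (edgeR, adjusted p = 0.000727) on the log2 scale. In 168FARN, *Il1rl1* had 6.52, 6.19 and 20.7 CPM in WT cells, 1.09, 1.17 and 2.81 in *Kmt2c* KO cells and 4.24, 7.85 and 11.0 in *Kmt2d* KO cells. There its log2 fold change in *Kmt2c* KO cells was -2.72 ± 0.65 (edgeR, adjusted p = 0.301), which passed with the replicate number as a block (adjusted p = 4.65e-05). The effect on *Il1rl1* differed between the lines by 9.65 ± 0.86 for *Kmt2c* (edgeR interaction, adjusted p = 1.94e-06) and by 7.42 ± 0.81 for *Kmt2d* (adjusted p = 2.16e-05).

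**Figure D3:**
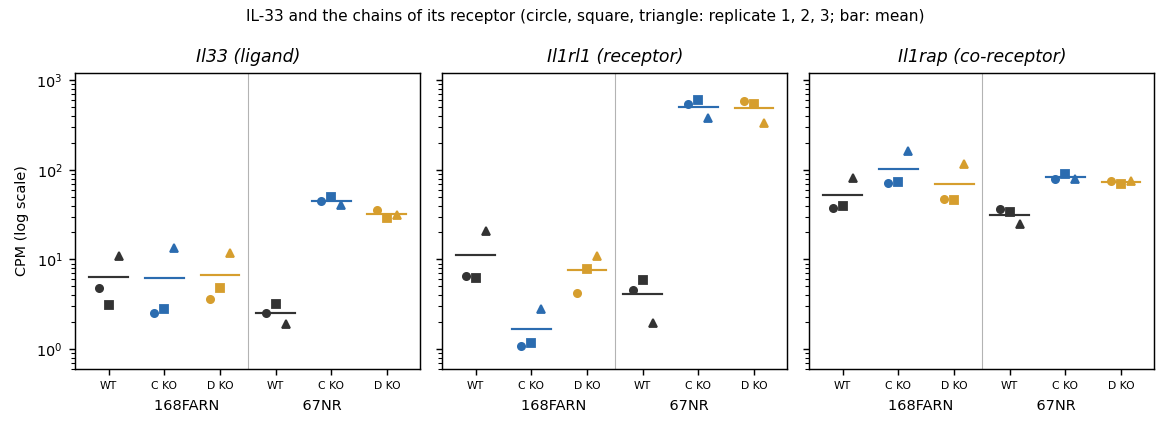
Levels of *Il33* and of the chains of its receptor, *Il1rl1* and *Il1rap*, in the 18 libraries (CPM, log scale; symbols are replicates 1, 2 and 3, bars group means, n = 3). In 67NR, ligand and receptor rise together in both KOs, with *Il1rl1* at 334 to 603 CPM in KO libraries and under 6 CPM in WT.

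*Il1a*, which encodes a cell-associated IL-1 that is active without cleavage, lies at chr2:129125346-129135708 on the minus strand. It had 210, 250 and 160 CPM in 67NR WT cells, 61.1, 61.5 and 62.9 CPM in *Kmt2c* KO cells and 91.6, 82.0 and 111 CPM in *Kmt2d* KO cells. All KO libraries lay below all WT libraries. *Il1a* was 3.15-fold lower in *Kmt2c* KO (log2 fold change -1.66 ± 0.19, edgeR, adjusted p = 0.000175) and 2.06-fold lower in *Kmt2d* KO cells (-1.04 ± 0.19, edgeR, adjusted p = 0.00369). *Il1b* was rare, with 0.577, 1.38 and 0.595 CPM in WT cells and 0.208 to 0.515 CPM in KO cells, which did not overlap. Its log2 fold changes of -1.29 ± 0.57 (edgeR, adjusted p = 0.111) and -1.38 ± 0.57 (edgeR, adjusted p = 0.119) missed the threshold. With the replicate block both passed, at adjusted p = 0.0761 and 0.0684, where 41.3% and 32.7% of all genes did. *Il1a* and *Il1b* each overlap a gene model on the other strand, and whether reads were counted by strand is not given, so their counts are uncertain to that extent.

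Of the IL-6 family, *Il6* and *Il11* rose in both KOs of 67NR and *Lif* in *Kmt2c* KO cells. *Il6*, the inducer of the acute-phase response, lies at chr5:30339701-30346508 on the plus strand. WT libraries held 22, 22 and 0 of its reads, *Kmt2c* KO libraries 112, 136 and 30, and *Kmt2d* KO libraries 464, 603 and 164. In CPM these were 0.259, 0.322 and 0, then 1.46, 2.07 and 0.702, then 8.53, 11.1 and 4.11. The 3 genotypes did not overlap, and replicate 3 was lowest in each of them. The log2 fold changes were 2.86 ± 0.81 in *Kmt2c* KO (7.27-fold, edgeR, adjusted p = 0.0233) and 5.34 ± 0.88 in *Kmt2d* KO cells (40.4-fold, edgeR, adjusted p = 0.00253). Even so, *Il6* stayed at a low level, between 0.702 and 11.1 CPM in KO cells. Its WT libraries alone would not have passed the filter on low counts.

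*Il11* (chr7:4724669-4734460, minus strand) had 3.65, 3.73 and 2.40 CPM in 67NR WT cells, 38.6, 39.2 and 15.6 CPM in *Kmt2c* KO cells and 26.8, 27.5 and 14.5 CPM in *Kmt2d* KO cells. Its groups did not overlap WT, and replicate 3 was again the lowest of each group. *Il11* was 10.1-fold higher in *Kmt2c* KO (log2 fold change 3.34 ± 0.42, edgeR, adjusted p = 0.000337) and 7.41-fold higher in *Kmt2d* KO cells (2.89 ± 0.41, edgeR, adjusted p = 0.00119). *Lif* (chr11:4157560-4172517, plus strand) had 78.5, 70.6 and 82.8 CPM in WT cells and 136, 111 and 90.2 CPM in *Kmt2c* KO cells, and rose by 0.62 ± 0.19 on the log2 scale (edgeR, adjusted p = 0.0313). That value is close to the fold threshold, and the call was lost when WT replicate 2 or *Kmt2c* KO replicate 1 was left out, with values down to 0.45. In *Kmt2d* KO cells *Lif* had 80.7, 88.6 and 66.1 CPM, which overlapped WT (0.10 ± 0.19, edgeR, adjusted p = 0.764).

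Of the colony-stimulating factors, *Csf3* and *Csf2* fell, and *Csf1* did not pass the test. *Csf3* (chr11:98562577-98564943, plus strand) had 158, 134 and 113 CPM in 67NR WT cells, 47.8, 38.0 and 38.2 CPM in *Kmt2c* KO cells and 40.5, 47.9 and 56.5 CPM in *Kmt2d* KO cells, all below the lowest WT library. It was 3.08-fold lower in *Kmt2c* KO (log2 fold change -1.62 ± 0.19, edgeR, adjusted p = 0.000214) and 2.65-fold lower in *Kmt2d* KO cells (-1.41 ± 0.19, edgeR, adjusted p = 0.000835). *Csf2* (chr11:54060773-54063169, minus strand, with a gene model on the other strand) had 17.2, 20.3 and 7.07 CPM in WT cells. It had 7.08, 7.81 and 3.02 CPM in *Kmt2c* KO cells, which overlapped WT through replicate 3, and 4.17, 4.18 and 2.55 CPM in *Kmt2d* KO cells, which did not. Within each replicate number, the KO library held less *Csf2* than its WT library. The log2 fold changes were -1.23 ± 0.46 in *Kmt2c* KO (edgeR, adjusted p = 0.067) and -1.95 ± 0.47 in *Kmt2d* KO cells (edgeR, adjusted p = 0.0168). The first was lost without WT replicate 1, WT replicate 2, *Kmt2c* KO replicate 1 or *Kmt2c* KO replicate 3, with adjusted p-values up to 0.2 by edgeR.

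*Csf1* (chr3:107543966-107563387, minus strand) was the most abundant of the 10 in CPM, with 575, 485 and 770 in 67NR WT, 388, 310 and 645 in *Kmt2c* KO cells and 314, 368 and 492 in *Kmt2d* KO cells. The genotypes overlapped, with replicate 3 highest in each. Its log2 fold changes were -0.37 ± 0.30 (edgeR, adjusted p = 0.39) and -0.57 ± 0.30 (edgeR, adjusted p = 0.216). With the replicate block the adjusted p-values were 0.0372 and 0.0104, but the changes stayed within the fold threshold. *Csf1r*, its receptor, was near 0 in 67NR, at 0.165, 0.351 and 3.66 CPM in WT cells and 0 to 0.398 CPM in KO cells. It passed as lower in *Kmt2d* KO cells (log2 fold change -4.51 ± 1.44, edgeR, adjusted p = 0.0518), where WT replicate 3 alone was above 1 CPM.

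*Tslp*, on chromosome 18, had 88.9, 106 and 65.8 CPM in 67NR WT cells, 38.8, 46.9 and 49.4 CPM in *Kmt2c* KO cells and 25.3, 24.7 and 65.0 CPM in *Kmt2d* KO cells. Neither KO overlapped WT, but *Kmt2d* KO replicate 3 came within 1 CPM of WT replicate 3. *Tslp* fell by 0.87 on the log2 scale in *Kmt2c* KO (SE 0.36, edgeR, adjusted p = 0.0947) and by 1.11 in *Kmt2d* KO cells (SE 0.36, edgeR, adjusted p = 0.0557). The first call was lost with DESeq2's size factors, without the filter on low counts, without *Rn45s* in the totals, and in every fit without 1 library other than WT replicate 3 (edgeR, adjusted p up to 0.247). The second was lost in a fit of the 6 libraries compared, and when replicate 1 or 2 of WT or of *Kmt2d* KO cells was left out (edgeR, adjusted p up to 0.182). *Tslp* overlaps a gene model on the other strand.

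**Figure D4:**
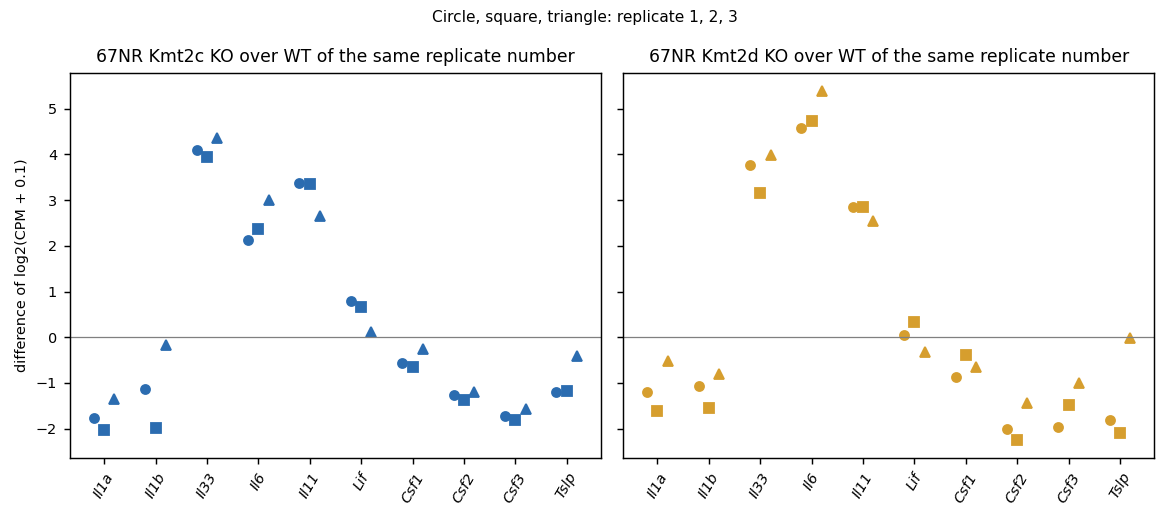
Difference in log2(CPM + 0.1) between the KO and the WT library of the same replicate number in 67NR, for *Kmt2c* KO (left) and *Kmt2d* KO (right); circles, squares and triangles are replicates 1, 2 and 3. *Il33*, *Il6* and *Il11* lie above 0 and *Il1a*, *Il1b*, *Csf1*, *Csf2*, *Csf3* and *Tslp* below 0 in all 3 replicates of both KOs, with *Tslp* in *Kmt2d* KO replicate 3 at -0.02.

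Setting the KOs of 67NR against each other compares the loss of the 2 methyltransferases. More unedited reads were left in the *Kmt2c* KO pool, so the gene lost and the extent of editing cannot be told apart. Without the replicate block, 0 of the 10 genes differed, where 1.41% of all genes did, with 4 at an unadjusted p under 0.05 (edgeR) and 1 called by DESeq2. *Il6* was lower with *Kmt2c* lost than with *Kmt2d* lost (log2 fold change -2.47 ± 0.75, edgeR, adjusted p = 0.245), and the libraries did not overlap. With the block, *Il6* (log2 fold change -2.51 ± 0.36, adjusted p = 0.00202) and *Il1a* (-0.61 ± 0.17, adjusted p = 0.0572) were lower and *Csf2* (0.65 ± 0.19, adjusted p = 0.076) higher in *Kmt2c* KO cells, 3 of 10 against 7.29% of genes by edgeR. *Il33* (0.51 ± 0.20, edgeR, adjusted p = 0.393), *Lif* (0.52 ± 0.19, edgeR, adjusted p = 0.346) and *Il11* (0.45 ± 0.38, edgeR, adjusted p = 0.768) did not pass with or without it.

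In 168FARN, *Il11*, *Lif*, *Il33*, *Csf1* and *Tslp* had enough reads to be tested, and none passed without the replicate block. For *Kmt2c* KO cells, 0 of 5 were called beside 0.359% of all genes, with 2 at an unadjusted p under 0.05 (edgeR) and 2 called by DESeq2. *Il11* had 15.4, 15.5 and 8.28 CPM in WT cells and 35.8, 37.0 and 27.2 CPM in *Kmt2c* KO cells, without overlap. Its log2 fold change was 1.36 ± 0.29 (2.56-fold, edgeR, adjusted p = 0.234), and with the block it passed (adjusted p = 4.65e-05). *Tslp* had 0.921, 0.274 and 0.165 CPM in WT cells and 3.90, 3.94 and 0.953 CPM in *Kmt2c* KO cells, from 27, 9 and 7 reads and from 118, 148 and 35 reads. KO replicate 3 lay just above WT replicate 1, and the log2 fold change was 2.71 ± 0.78 (edgeR, adjusted p = 0.445; with the block 0.00586). These were the 2 genes called with the block, where 7.23% of all genes were. In 168FARN, *Tslp* passed the filter on low counts only through its reads in *Kmt2c* KO cells. Its call was thus partly fixed by the filter, and the count of 2 is no test of the set.

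The *Kmt2d* KO cells of 168FARN showed no such difference, with 0 of 5 called beside 0.286% of all genes, 0 at an unadjusted p under 0.05 by edgeR, 0 by DESeq2 and 0 with the block (5.90% of all genes). *Il11* had 16.7, 18.9 and 12.2 CPM (log2 fold change 0.30 ± 0.29) and *Tslp* 0.306, 0.214 and 0.413 CPM (-0.47 ± 0.80), both overlapping WT. Between the KOs of 168FARN, 0 of 5 were called (0.253% of all genes), with 2 at an unadjusted p under 0.05 by edgeR and 2 by DESeq2. With the block, *Il11* (1.07 ± 0.13, adjusted p = 0.000501) and *Tslp* (2.92 ± 0.56, adjusted p = 0.0103) were higher with *Kmt2c* lost by edgeR, 2 of 5 against 5.33% of genes. This count is no test of the set either, as *Tslp* passed the filter only through its *Kmt2c* KO reads.

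*Il33* in 168FARN varied with the replicate number more than with the genotype. It had 4.84, 3.11 and 10.9 CPM in WT cells, 2.51, 2.80 and 13.4 CPM in *Kmt2c* KO cells and 3.63, 4.85 and 11.9 CPM in *Kmt2d* KO cells, so replicate 3 was highest in every genotype. The log2 fold changes were -0.02 ± 0.79 and 0.12 ± 0.79. *Csf1* lay between 217 and 315 CPM and *Lif* between 3.75 and 7.74 CPM in all 9 libraries. *Lif* in *Kmt2c* KO cells (6.90, 7.27 and 7.74 CPM) lay above all WT libraries, with a log2 fold change of 0.38 ± 0.26. The other 5 genes were too rare to test: *Il6* had 2 to 7 reads per library, *Csf2* 0 to 5, and *Il1a* and *Csf3* 0 to 3.

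Whether the KOs acted alike in both lines was tested as an interaction, for the 5 genes tested in each. For *Kmt2c*, 3 of 5 differed, where 16.5% of all genes did. *Il33* rose more in 67NR by 4.18 ± 0.87 on the log2 scale (edgeR, adjusted p = 0.00439), *Il11* by 1.89 ± 0.51 (edgeR, adjusted p = 0.0238), and the effect on *Tslp* was lower in 67NR (-3.69 ± 0.81, edgeR, adjusted p = 0.00652). For *Kmt2d*, 2 of 5 differed beside 11.0% of all genes, *Il33* by 3.54 ± 0.86 (edgeR, adjusted p = 0.0186) and *Il11* by 2.52 ± 0.52 (edgeR, adjusted p = 0.00587). These calls held without any 1 of the 12 libraries of the groups compared. *Csf1* differed for *Kmt2d* with the block (adjusted p = 0.00845, beside 30.2% of all genes) and not without it (-0.68 ± 0.37, edgeR, adjusted p = 0.365).

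Other genes of these pathways also changed in 67NR, where the shares of all genes called were 35.3% in *Kmt2c* KO cells and 25.5% in *Kmt2d* KO cells. Of 10 tested receptor genes, 2 rose and 1 fell in *Kmt2c* KO cells, and 2 rose and 2 fell in *Kmt2d* KO cells. Apart from *Il1rl1* and *Il1rap*, these were *Csf2rb*, a chain of the GM-CSF receptor (-1.49, *Kmt2c* KO), and *Csf1r* and the LIF receptor *Lifr* (-1.19), both in *Kmt2d* KO cells. With the replicate block, *Lifr* (-1.01, adjusted p = 0.00478) and *Csf1r* (-1.94, adjusted p = 0.0659) also passed as lower in *Kmt2c* KO cells and *Csf2rb* (-1.30, adjusted p = 0.0677) in *Kmt2d* KO cells by edgeR. Of 27 genes of signalling and its feedback, 10 rose and 5 fell in *Kmt2c* KO cells and 5 rose and 5 fell in *Kmt2d* KO cells. The block added *Stat5b* (0.60) as higher in the first and *Rel* (0.75) in the second, named for that change of call. *Socs3* and *Socs1*, feedback inhibitors of JAK kinases, rose by 1.93 and 3.41 on the log2 scale in *Kmt2c* KO cells and by 1.80 and 2.92 in *Kmt2d* KO cells (SE 0.21 and 0.54, then 0.21 and 0.53). *Socs1* thereby went from 1.81 ± 1.41 CPM in WT to 17.97 ± 3.48 and 12.8 ± 5.08 CPM (SD, n = 3). *Cish*, another feedback gene of this list, fell by 1.56 and 1.27, and the kinase gene *Jak2* by 1.24 and 1.00, while *Jak1* rose by 0.97 and 0.73. *Tnfaip3*, an inhibitor of NF-kappaB signalling, fell by 1.57 in *Kmt2c* KO cells, from 91.0, 95.4 and 91.1 CPM to 34.4, 32.0 and 21.9 CPM. In *Kmt2d* KO cells it had 57.0, 56.8 and 39.8 CPM, also below every WT library.

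Among 11 genes of cytokine mRNA decay, 2 rose in *Kmt2c* KO cells, below the 35.3% of all genes called there. In *Kmt2d* KO cells 2 rose and 1 fell, near the 25.5% of all genes called there. *Zfp36* encodes tristetraprolin, which binds AU-rich elements in cytokine mRNAs and speeds their decay. It had 24.4, 21.5 and 26.2 CPM in 67NR WT cells, 74.0, 79.4 and 52.9 CPM in *Kmt2c* KO cells and 82.6, 83.3 and 56.5 CPM in *Kmt2d* KO cells, and it rose by 1.60 ± 0.22 and 1.70 ± 0.22 on the log2 scale (edgeR, adjusted p = 0.000547 and 0.000656). Its relative *Zfp36l1* rose by 1.68 and 1.56. Of 12 related cytokines tested, 5 rose and 3 fell in *Kmt2c* KO cells, and 5 rose and 2 fell in *Kmt2d* KO cells. The rising genes included stem cell factor *Kitl*, from 93.0 ± 44.8 to 729 ± 60.6 and 560 ± 112 CPM (SD, n = 3), and the IL-6 family member *Clcf1* (1.72 and 1.27). Tumour necrosis factor *Tnf* fell by 1.28 and 2.99 from a WT level of 1.31 ± 0.417 CPM. Of 9 genes of cytokine processing and antagonism, 1 rose and 2 fell in *Kmt2c* KO cells, near the share of all genes. In *Kmt2d* KO cells 1 rose, below the share there. The inflammasome sensor *Naip2* was higher by 3.67 and 3.28. In 168FARN, 1 gene of all these lists passed without the replicate block: *Il1r1*, the receptor of IL-1, with 14.5, 13.5 and 13.1 CPM in WT cells and 40.6, 36.8 and 25.2 CPM in *Kmt2d* KO cells (1.34 ± 0.20, edgeR, adjusted p = 0.0595).

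With the replicate block, 6 genes of these lists passed in *Kmt2c* KO cells of 168FARN, where 7.23% of all genes did, and 4 in *Kmt2d* KO cells, where 5.90% did. The lists held 8 receptor, 27 signalling, 8 processing, 11 mRNA decay and 8 related cytokine genes tested in 168FARN. Both counts are near the shares over all genes and do not set these lists apart. Genes without a call above are named for that change of call, after their values were seen. In *Kmt2c* KO cells the receptor genes *Il1r1* (log2 fold change 0.68, edgeR, adjusted p = 0.0104), *Il1rap* (0.94, adjusted p = 0.000136) and *Crlf2*, a chain of the TSLP receptor (0.98, adjusted p = 0.0174), were higher. *Socs1* was also higher (0.68, edgeR, adjusted p = 0.042), and *Il1rl1* (-2.65) and the growth factor gene *Flt3l* (-0.64, edgeR, adjusted p = 0.038) were lower. In *Kmt2d* KO cells *Il1r1* (1.32), *Clcf1* (0.86, edgeR, adjusted p = 0.000351), the lymphocyte growth factor gene *Il7* (0.88, adjusted p = 0.00053) and *Socs1* (0.66, adjusted p = 0.0621) were higher.

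Markers of cell identity moved with the cytokines in 67NR. The sum of 8 mammary epithelial markers was 2458 to 3858 CPM in WT cells, 509 to 779 CPM in *Kmt2c* KO cells and 896 to 1556 CPM in *Kmt2d* KO libraries, with 7, 6 and 7 of 8 above 1 CPM on average and *Krt5* at 0. The sum of 8 fibroblast markers was 14.1 to 22.1 CPM in WT cells, 130 to 220 CPM in *Kmt2c* KO cells and 97.6 to 149 CPM in *Kmt2d* KO libraries, with *Thy1* at 0 in WT and *Kmt2c* KO cells. Of the 7 tested, 4 were called higher and 0 lower in each KO. With the replicate block, 4 passed as higher in each KO and 2 as lower in *Kmt2c* KO cells. The 13 leukocyte markers summed to 29.7 to 52.1, 47.9 to 90.6 and 44.2 to 93.2 CPM, with *Ms4a1* and *Cpa3* at 0 in all. On average *Cd68*, *Cd14* and *Csf1r* exceeded 1 CPM in WT cells, and *Cd68*, *Cd14* and *Lyz2* in both KOs. Of the 5 that could be tested, *Cd14* (1.48), *Lyz2* (2.81) and *Cd79a* (3.72) rose on the log2 scale in *Kmt2c* KO cells, while *Cd14* (0.68) and *Lyz2* (3.06) rose and *Csf1r* fell in *Kmt2d* KO cells. The 6 endothelial markers summed to 0.504 to 0.732 CPM in WT cells, 1.97 to 2.497 CPM in *Kmt2c* KO cells and 1.38 to 2.03 CPM in *Kmt2d* KO libraries. Of the 3 tested, *Cdh5* (2.60 and 1.75) and *Vwf* (3.07 and 3.74) rose in both KOs. In 168FARN, 1 of 8 epithelial markers, *Krt8*, exceeded 1 CPM, and *Cdh5* rose by 2.61 in *Kmt2c* KO cells (edgeR, adjusted p = 0.0537). The part of these differences in the cytokine results was not tested, and in bulk RNA a change in the share of cells making a cytokine cannot be told apart from a change in RNA per cell.

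Across the 18 libraries, cytokines other than *Csf1* were set beside the genes whose log2(CPM + 1) was most like their own. The closest to *Il1a* was the epithelial adhesion gene *Epcam* (r = 0.999), followed by *Csf3* (r = 0.998), whose own closest gene was the keratin gene *Krt19* (r = 0.999). *Il6* was nearest to the milk protein genes *Csn1s1* (r = 0.933) and *Csn2* (r = 0.912), *Il33* to *Lgi2* (r = 0.974) and *Ric3* (r = 0.973), and *Il11* to *Hs3st5* (r = 0.962) and *Adamtsl3* (r = 0.961). *Lif* was nearest to *A630095E13Rik* and the laminin gene *Lama3* (r = 0.989 and 0.988), *Tslp* to the complement gene *C3* (r = 0.976) and *Tns4* (r = 0.974), and *Csf2* to *Afap1l2* and *Prss12* (r = 0.985 and 0.984). *Il1b* was nearest to *BC021767* (r = 0.960). These values describe 18 libraries that fall into 2 lines, so a difference between lines alone gives a high r. Within the 9 libraries of 67NR, *Il33* correlated with *Il11* at 0.957 and *Il1a* with *Csf3* at 0.944, and *Il1a* with *Il33* at -0.92, values that follow the 3 genotypes.

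The messages of all 10 genes share AU-rich letters in their 3′ untranslated regions. The pentamer AUUUA occurred 2 to 9 times in each of the 10 (GENCODE vM1 transcripts), where 61.3% of 19915 genes hold at least 1. The longer motif UUAUUUAUU, counted with overlaps, occurred 5 times in *Il11*, 4 times in *Csf2* and 2 times in *Lif*, and in 6.52% of all genes. *Csf2*, *Il11*, *Il6* and *Csf3* are shown as 2 cytokines that rose and 2 that fell in 67NR KO cells, each as the 30 bases with most pentamers, 5′ to 3′, with every AUUUA in capitals.
*Csf2*: uuuuuaaauAUUUAUUUAUUUAUUUAUUUA
*Il11*: cuuuaaaaccagaucuuAUUUAUUUAUUUA
*Il6*: uuuaauuauuuuuaAUUUAuugauaAUUUA
*Csf3*: gauaguuuAUUUAucucuAUUUAauAUUUA
Both rising (*Il11*, *Il6*) and falling (*Csf2*, *Csf3*) cytokines of 67NR KO cells hold the pentamer.

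RefSeq promoter sequences were searched for 8 of the 10 genes, as *Csf3* had no entry and *Tslp* was left out of the search. They gave 10 windows that each occurred once in mm9, and the 250 bases before each start were searched on both strands. The AP-1 motif TGANTCA occurred in 4 genes, *Il6*, *Il1a*, *Il11* and *Lif*, and in 6.75% of all 32851 promoter windows. The NF-kappaB consensus occurred in *Il6*, *Lif* and *Csf1* (7.25% of all), TATAAA in *Il1a*, *Il1b* and *Il33* (12.4%), and GGGCGG in *Il11*, *Csf1* and *Csf2* (32.7%). No member window held the CRE TGACGTCA (1.55% of all) or the STAT letters TTCNNNGAA (7.02%). The windows of 3 genes that rose and of *Il1a*, which fell, are printed 5′ to 3′ in the direction of transcription, with matches to any of these motifs in capitals. *Il11* and *Il33* have 2 RefSeq starts each, and the one further downstream is shown.
*Il6* (chr5:30339404-30339653, plus strand): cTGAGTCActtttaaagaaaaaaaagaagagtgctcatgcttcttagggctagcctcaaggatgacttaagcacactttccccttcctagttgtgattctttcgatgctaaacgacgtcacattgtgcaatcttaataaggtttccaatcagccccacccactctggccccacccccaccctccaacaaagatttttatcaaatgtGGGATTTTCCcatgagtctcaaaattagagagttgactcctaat
*Il11* (chr7:4729744-4729993, minus strand): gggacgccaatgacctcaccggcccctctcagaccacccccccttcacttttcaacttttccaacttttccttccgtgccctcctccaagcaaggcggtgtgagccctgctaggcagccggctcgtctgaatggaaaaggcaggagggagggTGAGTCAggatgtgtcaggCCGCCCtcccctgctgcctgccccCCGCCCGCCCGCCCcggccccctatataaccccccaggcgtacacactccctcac
*Il33* (chr19:30020030-30020279, plus strand): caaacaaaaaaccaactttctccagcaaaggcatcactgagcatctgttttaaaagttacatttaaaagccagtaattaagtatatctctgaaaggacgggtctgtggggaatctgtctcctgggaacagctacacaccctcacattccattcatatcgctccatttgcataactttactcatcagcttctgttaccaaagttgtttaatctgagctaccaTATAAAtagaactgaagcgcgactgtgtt
*Il1a* (chr2:129135709-129135958, minus strand): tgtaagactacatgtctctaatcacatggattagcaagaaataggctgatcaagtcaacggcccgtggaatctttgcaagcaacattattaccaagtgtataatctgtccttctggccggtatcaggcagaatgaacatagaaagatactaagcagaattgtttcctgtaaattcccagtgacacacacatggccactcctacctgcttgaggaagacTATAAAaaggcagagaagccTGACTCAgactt
In *Il6* the AP-1 letters TGAGTCA lie at the far end of the window and the NF-kappaB letters GGGATTTTCC near the start site, whereas in *Il1a* the AP-1 letters TGACTCA lie next to the start. A match of letters is a description and not a site of binding.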

How the data were processed

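RNA from 18 samples of 168FARN and 67NR cells was sequenced. Per the labels and methods, libraries were stranded and made from mRNA, and the authors mapped the reads to mm9 by STAR within VIPER. They deposited counts of reads per gene symbol, whole numbers without normalization. The strand setting and version of the counting are not given in the sources used here. Groups were taken from the sample labels, and each column was matched by name, with 0 columns left over. In the 67NR table, symbols that a spreadsheet turned into dates were kept as they stand, and none is among the 10 genes.

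The 10 genes, the pathway and marker lists and the thresholds were chosen with earlier results of these data known. The software was edgeR 4.0.16 and DESeq2 1.42.0 under R 4.3.3, and Python 3.11.15 for sequences and figures. Each line was fitted on its own 9 libraries with edgeR's quasi-likelihood test (TMM, edgeR's filter on low counts, robust dispersions, genotype as the only factor, as in the study's methods), over 12253 genes in 168FARN and 13665 in 67NR. Interactions and the comparison of WT cells used all 18 libraries, and interactions were counted over the 11988 genes tested in both lines. P-values were adjusted over all genes tested (Benjamini-Hochberg), and genes past 0.1 (adjusted p) and 0.6 (log2 fold change in either direction) were called. The fits were tested on simulated counts with the same spread for all genes, no replicate effect and changes only in well expressed genes. That setting does not cover rare cytokines or the shift of replicate 3. An exact permutation test of 3 against 3 libraries cannot give a p under 0.1 and was not used.

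Deviations from the group mean correlated between libraries of one replicate number at 0.65 to 0.897 (168FARN) and 0.351 to 0.717 (67NR), above 0.1 for every pair. Between libraries of different numbers the correlations were -0.825 to 0.728 (168FARN) and -0.603 to 0.523 (67NR). WT replicate 1 of 168FARN correlated with *Kmt2c* KO replicates 1 and 2 at 0.723 and 0.728, and with replicate 3 at -0.79. The replicate numbers thus set replicate 3 apart but did not pair replicates 1 and 2 one by one. The authors treated collection time as a batch in heatmaps. Therefore the fit with the replicate number as a block is given beside results of the 10 genes and of the pathway lists in each KO against WT whose call it changes. The closest libraries of a group differed by a chi-square of 12.5 per degree of freedom, so none was a copy of another. Other alternatives were DESeq2 or its size factors, no filter, other thresholds, only the libraries compared, replicates 1 and 2 only and each library left out. Fits without *Rn45s*, and ratios between WT cells without replicate 1 of 168FARN, were added after seeing the data. Genes named outside the 10 are up to 3 called higher and 3 lower per list with the smallest p in each KO comparison, and the 2 genes most correlated with each cytokine, which for *Csf1* are not reported here. Coordinates are 1-based mm9 positions from GENCODE vM1.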

Additional observations from a re-analysis of the deposited data

Results flagged for a closer look

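The difference between KO and WT cells was not the same in both lines for these cytokines by the test of the interaction on all 18 libraries (edgeR, adjusted p under 0.1). The WT controls also differed between the lines, which cannot be told apart from the line. For *Kmt2c*, the effect in 67NR minus that in 168FARN was 4.18 for *Il33*, 1.89 for *Il11* and -3.69 for *Tslp* on the log2 scale. *Tslp* fell in 67NR, where it began near 87 CPM, while in 168FARN it went from 0.165 to 0.921 CPM in WT to 0.953 to 3.94 CPM in *Kmt2c* KO cells. In 168FARN it passed the filter on low counts only through those KO reads. For *Kmt2d*, the difference was 3.54 for *Il33* and 2.52 for *Il11*. In 168FARN, *Il33* varied more between replicate 3 and the others than between genotypes.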

How the results depend on the processing

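In 168FARN, the count of called cytokines in *Kmt2c* KO against WT cells went from 0 to 2 with DESeq2, with the replicate block and with replicates 1 and 2 only, and the same 3 settings gave 2 in *Kmt2c* against *Kmt2d* KO cells. Between the KOs of 67NR it went from 0 to 1 with DESeq2 and to 3 with the block or with replicates 1 and 2 only. The cause was not tested. In the other comparisons the counts stayed within 1.5 times under every setting that kept all libraries. With 1 library left out, the count in 67NR was 5 to 9 for *Kmt2c* KO (5 without WT replicate 2 or *Kmt2c* KO replicate 1) and 6 to 8 for *Kmt2d* KO, it was 8 to 9 between the WT cells, and it stayed at 3 and 2 for the interactions and at 0 elsewhere. The block changed the calls printed beside their results (*Il11* and *Tslp* in 168FARN, *Il1b*, *Il6*, *Il1a* and *Csf2* in 67NR, and *Csf1* in the *Kmt2d* interaction) and no other call of the 10 genes. Of values that did not pass the test, *Lif* in 168FARN *Kmt2d* KO cells (0.14) and *Il1b* between the KOs of 67NR (-0.37) changed sign with replicates 1 and 2 only. So did, with 1 library left out, *Il33* (-1.25 to 0.68) in 168FARN *Kmt2c* KO cells, *Il33* (-0.56 to 0.80), *Tslp* (-0.87 to 0.55), *Csf1* (-0.057 to 0.13) and *Lif* (-0.37 to 0.031) in 168FARN *Kmt2d* KO cells, *Il33* (-1.36 to 0.55) between the KOs of 168FARN, *Il1b* (-0.35 to 0.34), *Csf1* (-0.15 to 0.41) and *Tslp* (-0.0071 to 0.85) between those of 67NR, and *Il6* (-0.085 to 0.93) between the WT cells. In 168FARN, 2 to 7 reads of *Il6* per library limit what could be seen, and no statement on its change there is made.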
